A study of Homo sapiens with 2 samples.

Results

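The calpains, their small subunit and their inhibitor calpastatin were followed in SK-N-MC cells that overexpress human melanotransferrin and in cells of the same line carrying the empty vector. The 10 genes were CAPN1, CAPN2, CAPN3, CAPN5, CAPN6, CAPN7, CAPN10, CAPN15, CAPNS1 and CAST, out of 19775 genes with a probe set of their own. All 24 probe sets annotated to 1 of these genes and no other were taken, from the 54675 on the array. The genes were put together with earlier results of these data known, and CAPN6 was chosen by its signals on these same arrays. Its values are therefore a description, and nothing is supported with them.

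Calpains are cysteine proteases of the cytosol that cut a limited number of sites in their substrates, many of them proteins of the cytoskeleton and of adhesion sites. The classical enzymes, calpain 1 and calpain 2, pair a catalytic large subunit with the common small subunit CAPNS1 and need calcium, and calpastatin, the product of CAST, blocks them through repeated inhibitory domains. Some other family members, CAPN6 among them, lack the calcium-binding domain with EF hands, and CAPN6 also lacks the catalytic cysteine. In human and mouse cells CAPN6 has been described as a protein that binds and stabilises microtubules, and it is known from placenta and from developing muscle and cartilage.

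The data came from 2 Affymetrix U133 Plus 2.0 arrays. One held total RNA of hyperexpression clone 4, stably transfected with the human melanotransferrin cDNA in the vector pCMV-Script, whose cytomegalovirus promoter drives the insert. The other held RNA of vector control 1, which carried pCMV-Script without an insert. Both lines derive from SK-N-MC, named a neuroepithelioma line by the submitters and now placed in the Ewing tumour family, and both had been through lipid transfection and selection of stable cells. With 1 array of 1 line per group there is no replicate, no SD between cultures and no test, and a difference between any pair of clones cannot be told apart from an effect of melanotransferrin. Depth has no counterpart in array signals, and precision is limited by the small number of arrays.

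CAPN6, the member with the large difference, lies on chromosome X, and the RefSeq tables give it 1 transcript and 1 start. The bases before that start are shown beside those of CAPNS1, the member with a single, bright probe set whose signal differed little between the arrays. Both run 5′ to 3′ on the strand of the gene and are RefSeq sequences of GRCh38.p14, chrX:111270484-111270733 (minus strand) for CAPN6 and chr19:36139816-36140065 (plus strand) for the first of the 2 CAPNS1 starts. Capitals mark the GC box GGGCGG, which was searched on both strands.
CAPN6: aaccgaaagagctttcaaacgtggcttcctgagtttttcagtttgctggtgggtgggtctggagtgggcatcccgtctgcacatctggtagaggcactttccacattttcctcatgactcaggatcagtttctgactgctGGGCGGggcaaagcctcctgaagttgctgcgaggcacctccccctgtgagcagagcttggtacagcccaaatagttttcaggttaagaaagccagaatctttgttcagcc
CAPNS1: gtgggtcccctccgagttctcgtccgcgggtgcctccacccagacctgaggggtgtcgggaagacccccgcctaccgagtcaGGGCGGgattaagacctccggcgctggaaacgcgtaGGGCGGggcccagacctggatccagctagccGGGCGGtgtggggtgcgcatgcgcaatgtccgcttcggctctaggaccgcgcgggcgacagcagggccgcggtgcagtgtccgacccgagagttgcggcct
The CAPN6 window had 52.0% G and C and 5 CpG dinucleotides, a number that 38.1% of all 35116 RefSeq windows of the same 250 bases did not exceed. Its 1 GC box began 110 bases before the start. The CAPNS1 window had 70.4% G and C, 28 CpG dinucleotides (85.9% of windows had no more) and 3 GC boxes. A GC box on either strand was present in 42.6% of all windows. TATAAA, found in 10.7% of windows, and CCAAT, found in 32.0%, were in neither sequence. Windows were given for 9 of the 10 genes. Over their 19 windows the CpG dinucleotides ran from 0 to 37. Of the windows of the other genes 4 held no more than the 5 of CAPN6: 2 of CAPN3, with 0 and 4, 1 of CAPN2, with 1, and 1 of CAST, with 2. The windows of CAPN7, CAPN10 and CAPN15, 1 for each gene, held 31, 31 and 28. The second CAPNS1 window held 11 CpG dinucleotides and 1 GC box, and 7 of the 19 windows had no GC box. These arrays measured no binding or methylation at these windows.

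Signals were compared with a floor of 208, the 90th percentile, taken over both arrays, of 191 probe sets for genes of smell, bitter taste and hair keratin-associated proteins. Probe sets under this floor on each array were counted as not measured. One under it on a single array was set against the floor, so that its ratio is a bound. Of the 24 probe sets, 17 were measured: 14 passed the floor in clone and control alike, 0 passed it in the clone alone and 3 in the vector control alone. The other 7 passed it in neither. By the brightest probe set 9 of the 10 genes were measured.

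CAPN6 was higher in the clone on both of its measured probe sets. Probe set 202965_s_at read 2694.8 in the clone and 689.3 in the vector control, a ratio of 3.91 and a log2 ratio of 1.97. Probe set 202966_at read 1082.8 in the clone and 363.1 in the vector control, a ratio of 2.98 and a log2 ratio of 1.58. The clone was the higher array in each, and both control signals lay above the floor, so neither ratio rests on a bound. The third probe set, 217387_at, read 5.9 in the clone and 99.9 in the vector control and was not measured. Its measured log2 ratios averaged 1.77 and lay 0.39 apart, against a pooled SD of 0.35 between probe sets of 1 gene over 5387 genes with several measured on both arrays. The pooled SD fell with signal: it was 0.38 for genes whose dimmest such probe set had a mean signal under 1000, as CAPN6 has, 0.27 from 1000 to 5000 and 0.16 above 5000. That spread comes from the same RNA on the same arrays and leaves out the variation between cultures and clones. In RNA of a whole culture, more cells with CAPN6 RNA and more of it per cell cannot be told apart.

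Over all 23996 measured probe sets of a single gene, the share at least 2-fold higher in the clone was 1.24%, and the share at least 2-fold lower was 1.93%. Among the 17 measured calpain and calpastatin probe sets, 2 were at least 2-fold higher, both of CAPN6, and 1 was at least 2-fold lower, 1 of CAPN15. Because CAPN6 was chosen by its ratio, nothing is read from this count. With the arrays centred on the control transcripts spiked in at hybridisation, 2 of the members' probe sets were at least 2-fold higher and 0 lower. With the poly-A spikes as the centre, 1 probe set was higher and 2 were lower. By the brightest probe set of each gene, 1 of 9 members was at least 2-fold higher and 0 were at least 2-fold lower, where 1.21% and 1.9% of 12663 genes were. In the range of mean signal from 500 to 2000, in which both CAPN6 probe sets fall, 1.31% of 8399 probe sets that passed the floor on both arrays were at least 2-fold higher. CAPN6 stood 2nd by log2 ratio among 10795 genes above the floor on both arrays. A second ranking left out every probe set under the floor on either array, the dim CAPN6 217387_at included. At least 2 had to remain per gene, and in 1152 genes all that remained were higher in the clone. CAPN6 stood 1st of these 1152 by the smallest ratio of each gene. Both ranks use the ratios by which CAPN6 was chosen, so nothing is read from them either.

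**Figure D1:**
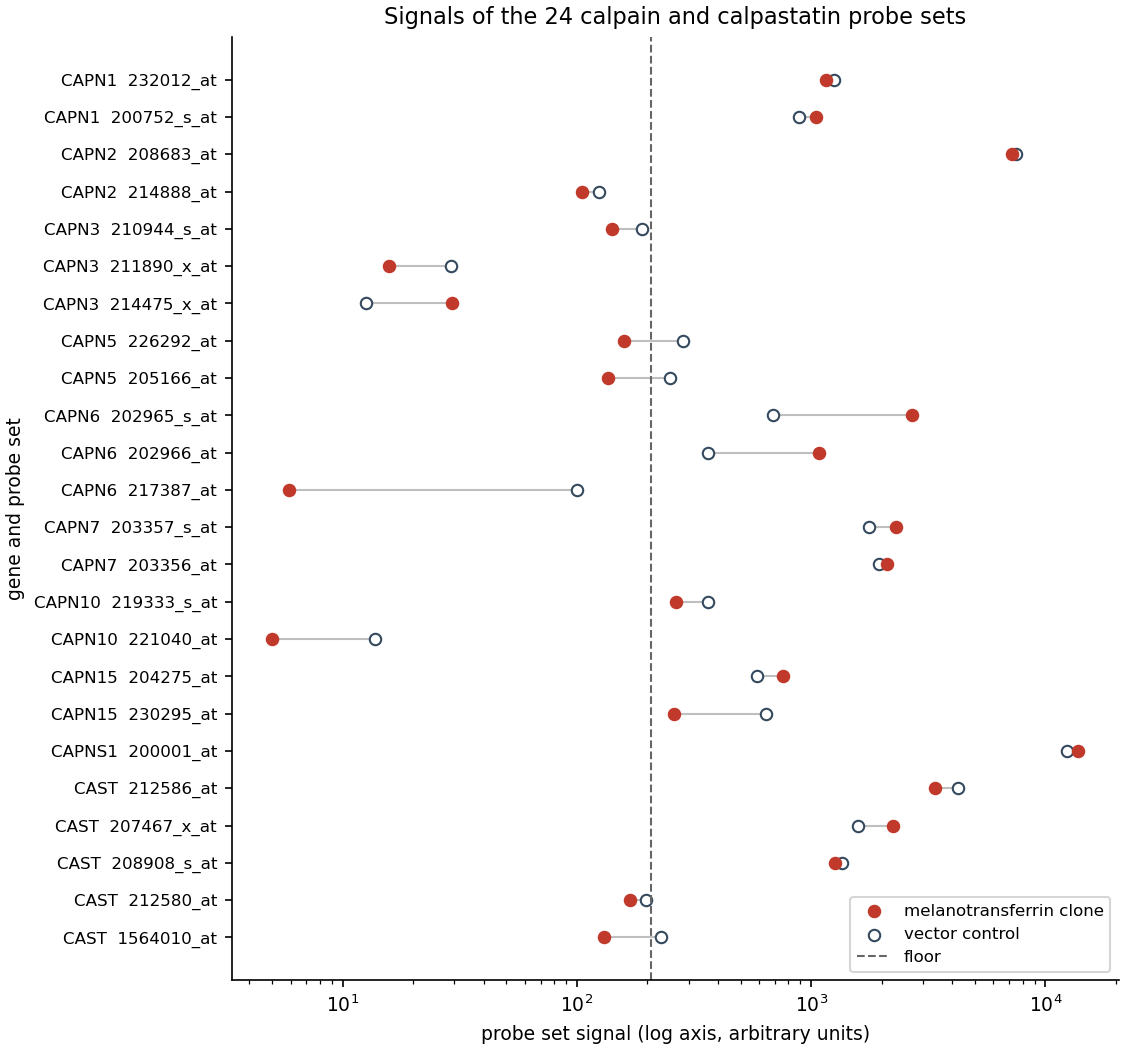
Signal of each of the 24 probe sets (rows, by gene) on the clone array (filled points) and on the vector control array (open points), on a log axis, with the floor of 208 as a dashed line. The points of CAPN6 202965_s_at and 202966_at lie far apart with the clone to the right, those of CAPN15 230295_at lie apart with the clone to the left, and the other pairs above the floor lie close together.

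As deposited, the genes of the classical calpains were near equal on the arrays. For CAPN1, the large subunit of calpain 1, probe set 232012_at read 1157.8 in the clone and 1249.1 in the vector control, and 200752_s_at read 1046.3 in the clone and 888.8 in the vector control. Their log2 ratios, -0.11 and 0.24, pointed in opposite directions and lay no further apart than the pooled SD between probe sets. CAPN2, the large subunit of calpain 2, read 7193.1 in the clone and 7491.9 in the vector control, a log2 ratio of -0.059, and its other probe set was below the floor, at 105 in the clone and 124.3 in the vector control. CAPNS1, the regulatory small subunit that both enzymes share, read 13824.6 in the clone and 12397.6 in the vector control, a log2 ratio of 0.16. CAPN2 and CAPNS1 had 1 measured probe set each, so no spread between probe sets can be set beside them. Centred on the hybridisation and poly-A spikes, CAPN2 stood at 0.44 and -0.67, and CAPNS1 at 0.66 and -0.45. Both CAPN1 probe sets turned direction between these centrings as well.

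Calpastatin, the inhibitor of the classical enzymes, gave no single direction. Its brightest probe set, 212586_at, read 3380.6 in the clone and 4212.8 in the vector control, a log2 ratio of -0.32. Probe set 207467_x_at read 2231 in the clone and 1582.9 in the vector control, a log2 ratio of 0.50. Probe set 208908_s_at read 1268.5 in the clone and 1356.6 in the vector control, a log2 ratio of -0.097. The 3 log2 ratios spanned 0.81, and 22.2% of the 1444 genes with 3 such probe sets spanned as much or more. Of the dim probe sets of CAST, 1564010_at was above the floor in the vector control only (130.1 in the clone, 229.5 in the vector control) and 212580_at on neither array (168.4 in the clone, 197.7 in the vector control). The RefSeq tables list 36 transcripts and 5 start windows for CAST, against 1 of each for CAPN6, and which transcripts each probe set reads was not tested. The suffix _x marks probes that can also match other transcripts.

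**Figure D2:**
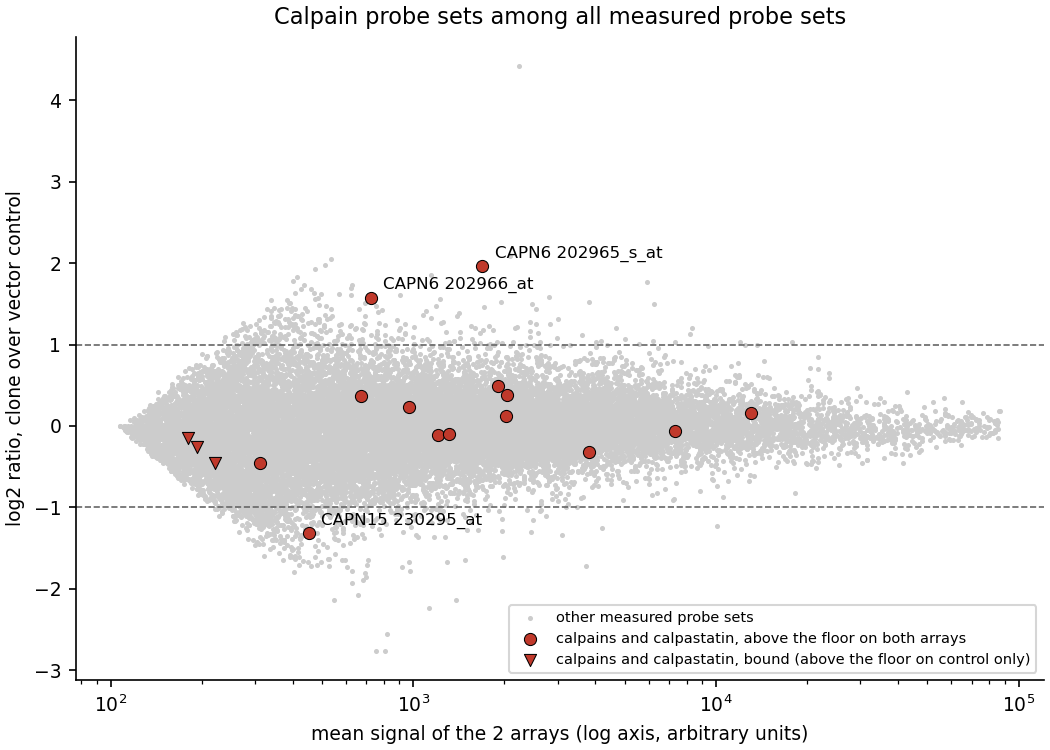
Log2 ratio, clone over vector control, of every measured probe set against its mean signal on a log axis (grey), with the 17 measured calpain and calpastatin probe sets in red and 2-fold differences as dashed lines. The CAPN6 probe sets, at 1.97 and 1.58, lie at the upper edge of the cloud, CAPN15 230295_at lies at its lower edge at -1.31, and the others lie inside it.

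Among the calpains without EF hands, CAPN7, which binds the membrane-remodelling ESCRT-III proteins, had positive log2 ratios on both probe sets as deposited. Its probe set 203357_s_at read 2312.2 in the clone and 1772.5 in the vector control, a log2 ratio of 0.38, and 203356_at read 2106.3 in the clone and 1943.2 in the vector control, a log2 ratio of 0.12. CAPN10, another atypical calpain, read 263.7 in the clone and 361.5 in the vector control, a log2 ratio of -0.46 close to the floor, and its other probe set was below it, at 5 in the clone and 13.8 in the vector control. CAPN5, the human calpain whose domain layout is most like that of CAPN6, was below the floor in the clone on both probe sets. Probe set 226292_at read 158.6 in the clone and 284.8 in the vector control, and 205166_at read 135.7 in the clone and 249.3 in the vector control, so that CAPN5 was at least 1.37-fold and at least 1.20-fold lower. The 191 probe sets behind the floor were dimmer in the clone too, with a median of 44 in the clone and 67.4 in the vector control, and 442 genes were above the floor in the clone only against 1426 in the vector control only. The part of that shift in the CAPN5 bounds was not tested.

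The probe sets of CAPN15, the human homologue of the fly gene small optic lobes, disagreed. Probe set 204275_at read 760.9 in the clone and 588.2 in the vector control, a log2 ratio of 0.37. Probe set 230295_at read 259.8 in the clone and 644.1 in the vector control, a log2 ratio of -1.31, or 2.48-fold lower. The difference of 1.68 between them was equalled or passed by 0.303% of the 2969 genes with 2 probe sets that passed the floor on both arrays, whose median difference was 0.28. CAPN6, CAPN1 and CAPN7, with differences of 0.39, 0.34 and 0.27, were near that median. Over probe sets with a mean signal under 500, as 230295_at has, 2.85% were at least 2-fold lower. No direction is given for CAPN15 as a gene. The RefSeq table lists 16 transcripts for it, and where its probe sets lie on them was not tested.

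**Figure D3:**
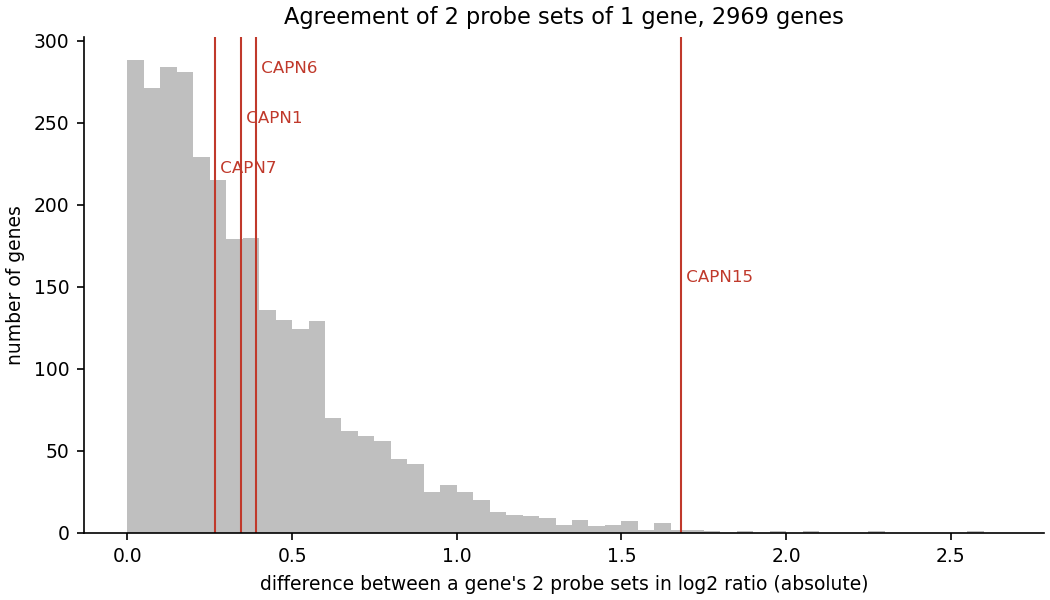
Number of genes by the absolute difference between the log2 ratios of their probe sets, for the 2969 genes with 2 probe sets that passed the floor on both arrays, with the 4 calpains of this kind as red lines. CAPN7, CAPN1 and CAPN6 lie in the bulk between 0.27 and 0.39, and CAPN15 lies far out at 1.68.

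Leaving CAPN6 and CAPN15 230295_at aside, the other 11 probe sets that passed the floor on both arrays, of 7 genes, had log2 ratios from -0.46 to 0.50, 6 of them higher and 5 lower in the clone. The median over the 9 measured members was -0.059, beside -0.022 over all measured genes. CAPN3, the skeletal muscle calpain that binds titin, was the member with no measured probe set, its brightest reading 140.6 in the clone and 188.9 in the vector control. Of the 8 skeletal muscle markers examined, 7 were below the floor on both arrays, MYOD1, MYOG, DES and TTN among them. Over all 19775 genes, 12663 were measured by the brightest probe set.

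The wider family added no gene past 2-fold, beside shares of 1.21% higher and 1.9% lower over all measured genes. Of the 7 further genes, CAPN9, CAPN11, CAPN12 and CAPN14 were below the floor on both arrays. CAPN8 read 25.2 in the clone and 214.7 in the vector control, and CAPN13 read 51.8 in the clone and 226 in the vector control, each just above the floor on the control array. CAPNS2, a second small subunit, read 221.3 in the clone and 163.4 in the vector control. The largest of these 3 bounds was the 1.09-fold of CAPN13, and a bound this small does not show that a gene was equal on both arrays.

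Genes that encode substrates of the classical calpains, from lists drawn up with earlier results of these data known, held no member past 2-fold by the brightest probe set. Of their other probe sets 1 passed it, a probe set of MAP1B. Over all measured genes the shares past 2-fold were only 1.21% higher and 1.9% lower, so nothing is read from these counts. Of 20 cytoskeletal and adhesion substrates 15 were measured, with 0 at least 2-fold higher, 0 at least 2-fold lower and a median log2 ratio of 0.029. SPTAN1, the brain spectrin whose calpain fragments are a common marker of calpain activity, read 10010.2 in the clone and 6463.3 in the vector control, a log2 ratio of 0.63, and its other probe sets that passed the floor on both arrays gave 0.59 and 0.37. PXN, the focal adhesion protein paxillin, stood at 0.35. The lowest values by the brightest probe set were those of EZR and MAP1B. EZR, ezrin, which links actin to the membrane, stood at -0.22, and its other 3 measured probe sets ran from -0.92 to -0.32. MAP1B, a microtubule-associated protein, stood at -0.20, and its dimmest probe set read 980.1 in the clone and 2992.7 in the vector control, a log2 ratio of -1.61, or 3.05-fold lower. Its remaining probe set stood at -0.12, so that the MAP1B probe sets were all lower in the clone but differed in size. Over the 49 measured probe sets of these genes 0 were at least 2-fold higher and 1 was at least 2-fold lower. The shares over all measured probe sets of a single gene were 1.24% and 1.93%. Of 15 signalling and cell death substrates 13 were measured, with 0 past 2-fold in either direction and a median of -0.043. PRKCA, protein kinase C alpha, stood at 0.49 by its brightest probe set and at -0.36 by the other one measured. The kinase SRC stood at 0.28 by its brightest, whereas the other one measured read 213.8 in the clone and 425.3 in the vector control, a log2 ratio of -0.99. No direction is given for either gene. PTPN1, a tyrosine phosphatase, stood at -0.54 on its 1 measured probe set, and BAX, a pore-forming death protein, at -0.50 and -0.33. None of the 27 measured probe sets of this list passed 2-fold. RNA levels say nothing of how much of these proteins was cut.

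Lysosomal cysteine proteases and their cystatin inhibitors, a protease family apart from the calpains, had 14 of 17 genes measured and a median of -0.099. Of these 1 was at least 2-fold higher and 0 at least 2-fold lower, beside 1.21% and 1.9% of all measured genes. CTSV, cathepsin V, read 2128.5 in the clone and 1046.7 in the vector control on its 1 probe set, a log2 ratio of 1.02. CTSK and CTSZ, cathepsins picked out after their values were seen, were 1.88-fold lower each, CTSK at 3413.4 in the clone and 6423.7 in the vector control. Genes of calcium entry, pumps and sensors had 14 of 21 measured, 0 past 2-fold by the brightest probe set and a median of 0.12. The same shares over all genes stand beside this list, and nothing is read from either count. STIM2, a sensor of calcium in the endoplasmic reticulum, stood highest at 0.64 by its brightest probe set, with 1.13, past 2-fold, and a bound of -0.69 on the others. ITPR3, a calcium release channel, stood at 0.35 by its brightest, with 0.056 and a bound of -0.16 on the others. The calcium pumps ATP2B4 and ATP2A2 stood lowest at -0.57 and -0.46. The other measured probe sets of ATP2B4 gave -0.27 and a bound of -0.47, and those of ATP2A2 gave -0.0065, -0.77 and a bound of 0.40.

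**Figure D4:**
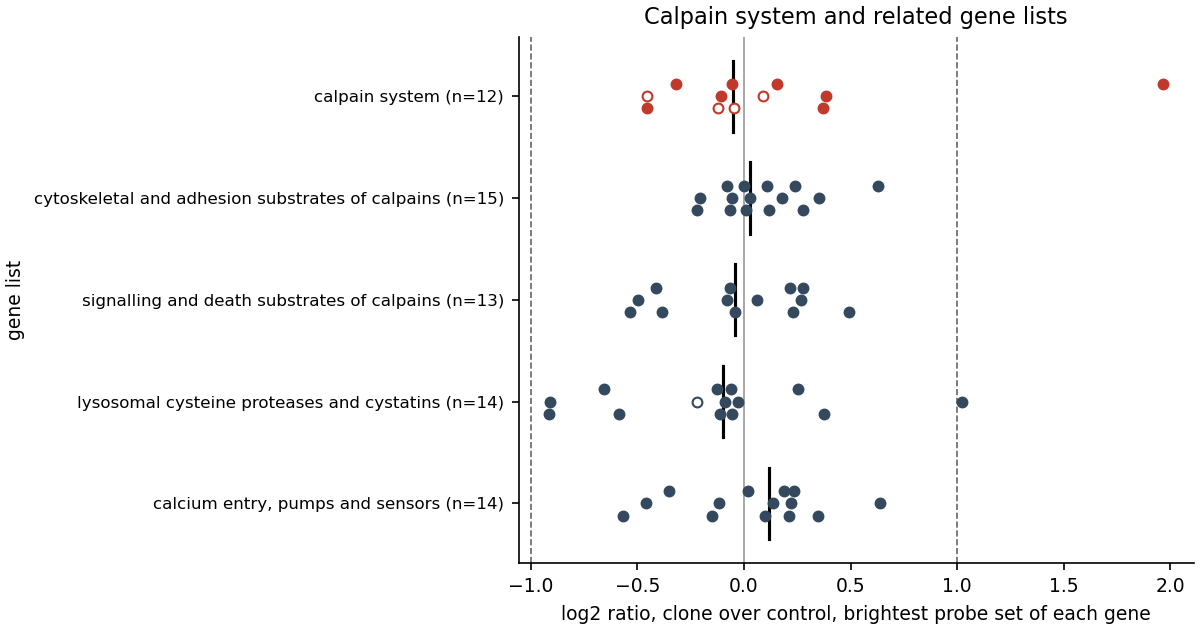
Log2 ratio, clone over vector control, of the brightest probe set of each measured gene (points, open where the gene was above the floor on 1 array only) in the calpain system and 4 related lists, with each median as a black bar and 2-fold differences as dashed lines. The medians run from -0.099 to 0.12, CAPN6 lies alone at 1.97, and CTSV at 1.02 is the next highest.

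The gene next to CAPN6 on chromosome X, in the order of the RefSeq table, is DCX, which encodes doublecortin, a protein that stabilises microtubules in migrating neurons. Its probe set 204850_s_at read 404.5 in the clone and 85.7 in the vector control, and 204851_s_at read 336.6 in the clone and 35.5 in the vector control. Set against the floor, DCX was at least 1.94-fold and at least 1.62-fold higher in the clone. Of the 5 measured genes on either side of CAPN6, DCX was the only 1 of 10 whose probe sets were all above the floor in the clone and all below it in the vector control. By their brightest probe sets, 0 of the 10 neighbours were at least 2-fold higher and 0 at least 2-fold lower, beside 1.19% higher and 2.85% lower among the 421 measured genes of chromosome X. The count of higher neighbours depends on the floor, because the 1.94-fold of DCX is a lower bound and does not place it under 2-fold. The 9 neighbours apart from DCX had log2 ratios from -0.61 to 0.46. ALG13, an enzyme subunit of N-glycosylation on the far side of DCX, had 4 measured probe sets from -0.26 to 0.57, and AMMECR1, the nearest measured gene on the opposite side, had 3 from -0.38 to 0.099. NXT2, a factor of RNA export, read 879.3 in the clone and 2136.4 in the vector control on its second probe set, a log2 ratio of -1.28, and -0.071 on its brightest. CHRDL1, which lies between AMMECR1 and CAPN6, read 37.2 in the clone and 93.5 in the vector control and was not measured.

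**Figure D5:**
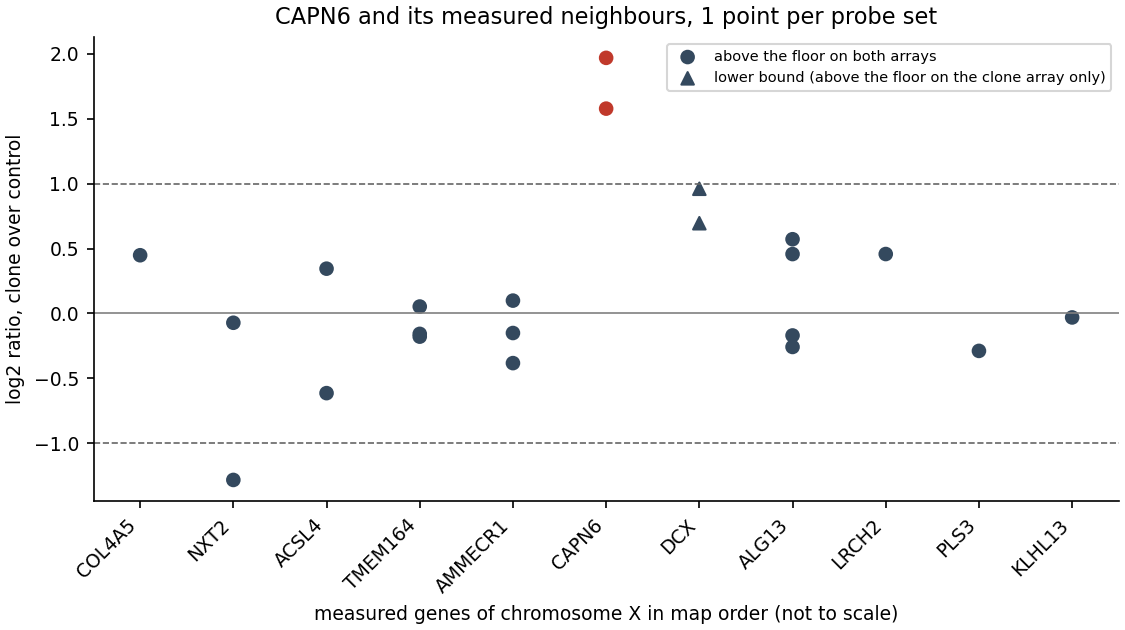
Log2 ratio, clone over vector control, of each measured probe set of CAPN6 (red) and of the 5 measured genes on each side of it, in map order with even spacing, with bounds as triangles. CAPN6 at 1.97 and 1.58 and DCX, at bounds of 0.96 and 0.69, are the highest points, and the other neighbours lie at 0.57 or lower.

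The genes nearest to CAPN6 in mean log2 ratio, among the 5387 with several probe sets that passed the floor in clone and control, were PCDH17 at 1.59, PCSK5 at 1.27, SHISAL1 at 1.22 and GALNT12 at 1.17, beside 1.77 for CAPN6. Likeness here rests on 1 ratio from 2 arrays. PCDH17 was the nearest, 0.18 away, and read 9236 in the clone and 3279.4 in the vector control on its brightest probe set. They lie on chromosomes 13, 9, 22 and 9 in the order named, and none lies on chromosome X.

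Markers of tissues in which CAPN6 is known were mostly not measured, where 12663 of all 19775 genes were measured by the brightest probe set. Of 6 trophoblast markers 4 were below the floor on both arrays, GCM1 and PSG1 among them, and of 5 cartilage markers 3, COL2A1 among them. The markers' signals summed to 674 in the clone and 1371.9 in the vector control for trophoblast, and to 839.1 in the clone and 1235.8 in the vector control for cartilage. These sums include markers below the floor, where background was dimmer in the clone (median 44, against 67.4 in the vector control). They are not read as a change of either tissue's markers. KRT7, a keratin of simple epithelia, made up most of both trophoblast sums. It read 398.8 in the clone and 904.9 in the vector control, with its other probe sets below the floor. ACAN, the cartilage proteoglycan aggrecan, read 175.2 in the clone, under the floor, and 429.7 in the vector control, so that it was at least 2.07-fold lower, and its other measured probe sets gave -0.61 and a bound of -0.33. SOX9, a transcription factor of cartilage, read 599.2 in the clone and 544.6 in the vector control on its brightest probe set, a log2 ratio of 0.14, and -0.094 on its other. The 5 Ewing tumour markers with a probe set were all measured, with log2 ratios from -0.048 to 0.47.

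For the transfected gene, MELTF, 1 of 4 probe sets was at least 2-fold higher, at 4449.4 in the clone, against 18.4 in the vector control, which lies under the floor, so that MELTF was at least 21.4-fold higher. The floor was passed by 47.3% of probe sets on the clone array and 50.8% on the control array. Probe sets for hybridisation spikes stood at a median ratio, clone over control, of 0.706 and those for poly-A spikes at 1.53, so that the spikes disagree on the scale. Centring on them moved the median of all genes to 0.47 and to -0.58. Relative to that median the CAPN6 log2 ratio was 1.99 as deposited, 2.00 with the hybridisation spikes and 1.94 with the poly-A spikes. Centring moves CAPN6 and the median nearly alike, so these values were bound to be close and say nothing of how stable the ratio is. Of the other members above the floor on both arrays, each turned direction between these centrings except CAPN15 230295_at, which was lower under both.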

How the data were processed

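Total RNA of 1 line per group was measured on Affymetrix U133 Plus 2.0 arrays, per the labels' protocols. The authors deposited linear intensity values, 1 signal per probe set and array; GCOS 1.3 was used, per the submitters' processing notes, and no source used here gives the summary algorithm. The deposited intensity values had a mean of 1000.12 on both arrays after dropping the lowest and highest 2% of probe sets. This equal scaling hides any change shared by most transcripts.

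Probe sets were named by the platform annotation of 2016; 41097 had 1 gene, 1801 several and 11777 none here, and those with 1 gene were used. Symbols were updated by gene ID through RefSeq (GRCh38.p14), which matched 41043. The members and gene lists were chosen with earlier results of these data known; 1 list is not reported here. A gene was represented by its brightest probe set, signals under the floor were set to it, and a ratio of 2 was counted. Named genes were all members, the transfected gene, list members past 2-fold or the 2 most extreme each way, the 4 genes nearest CAPN6 and its 5 measured neighbours per side. Alternatives changed the scaling, the floor, a pseudocount of 50 or 100 and the probe sets. The functions were tested on simulated data. Python 3.11.15, numpy 2.4.6, pandas 2.3.3, statsmodels 0.14.6 and matplotlib 3.10.9 were used. The group labels are single, so no test was run.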

Additional observations from a re-analysis of the deposited data

How the results depend on the processing

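The CAPN6 log2 ratio of 1.97 stayed positive in all 12 alternatives run. It was 2.47 centred on the hybridisation spikes, 1.36 centred on the poly-A spikes and 1.58 without probe sets of shared sequence (202966_at alone), and between 1.77 and 2.00 in the others. Probe set 202966_at fell under 2-fold with the poly-A spikes, at 0.97. The count of calpain genes past 2-fold was 1 in all alternatives but the poly-A spikes, where it was 2, with CAPN10 lower. The count of probe sets past 2-fold was 3 as deposited and ran from 2 to 4, the 4 with a pseudocount of 50 and no floor, where the dim CAPN6 217387_at also counted as lower. CAPN15 230295_at was lower in all 11 alternatives that gave it a value, at -0.63 as a bound with the floor 2 times as high and -0.81 with the hybridisation spikes, both under 2-fold. The median of the calpain genes, -0.059, moved to 0.44 and -0.58 with the hybridisation and poly-A spikes, and was 0.16 with the floor 2 times as high. The count past 2-fold in the 4 related lists was 1 as deposited, 3 with the hybridisation spikes (all higher) and 7 with the poly-A spikes (all lower). Over all genes, the split of 153 higher and 240 lower became 918 and 57, and 17 and 1518, under those centrings, and 71 and 47 with the floor 2 times as high. With a pseudocount of 50 in place of the floor it was 702 and 1705, with 100 it was 270 and 950, and with each array's own background percentile 147 and 401. DCX, a bound of 0.96 as deposited, was 1.29 with the hybridisation spikes and 0.61 with the poly-A spikes. It was past 2-fold with quantile normalization (1.07), loess (1.02) and pseudocounts of 50 (1.74) and 100 (1.44). It was under 2-fold centred on the median (0.99), with each array's background percentile (0.87) or median (0.91) as floor, and by the median over probe sets (0.83). It was not measured with the floor 2 times as high or without probe sets of shared sequence. Centring adds 1 constant to every log2 ratio above the floor, and the cause of the spikes' disagreement was not tested. No paired analysis was possible because each group has 1 array. Signals near the floor limit what can be said of CAPN5, CAPN10, CTSZ and DCX.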
